A study of Mus musculus with 6 samples.

Results

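In sorted mouse intestinal stem cells, 8 genes of cell death were examined: the death receptor gene Fas, the apoptosome gene Apaf1, the caspase genes Casp9, Casp6, Casp1 and Casp4, the pore-forming gasdermin gene Gsdmd and the cytokine gene Il18. They were taken by gene symbol from the deposited table, which held all 8 of them among its 23127 genes. The study compared cells kept untreated with cells given interferon gamma (IFNg), the cytokine of activated T and natural killer cells. The mice were Lgr5-GFP animals of the C57BL/6 strain, and the small intestinal cells kept were those with high GFP, so every library came from cells carrying a green fluorescent reporter of Lgr5, a receptor that marks the stem cells at the crypt base. The 3 treated libraries came from cells held for 1.5 h in a medium of EGF, Noggin and R-spondin1 with 1 ng/ml IFNg, and the 3 control libraries from cells labelled as having no treatment. Titles of both groups carry the number 1.5, but whether control cells were held in medium as long is not stated, so time in culture may be part of every difference between the groups and cannot be told apart here. Neither mouse age nor the number of animals behind the libraries is given in the sources used here, and the p-values therefore measure the spread between these 6 libraries, which may be partly technical. Libraries are named below by group and by the number that ends their title: untreated 5, 1 and 9, and IFNg 6, 2 and 10.

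Apoptosis is started at the cell surface when Fas ligand binds Fas and recruits caspase-8, or at mitochondria when released cytochrome c assembles Apaf1 and caspase-9 into the apoptosome. Both routes end in executioner caspases such as caspase-6. Pyroptosis is a lytic death in which caspase-1, activated by inflammasomes, or caspase-4 (also called caspase-11 in mice), activated by bacterial lipopolysaccharide in the cytosol, cuts gasdermin D into a pore former, and caspase-1 also matures interleukin-18. In the gut epithelium, this pathway expels infected cells, and interleukin-18 is made largely by epithelial cells.

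Values are scaled counts, that is, reads per gene divided by a size factor of the library by the authors. Genes were tested with limma on log2(scaled count + 1), two-sided, for the 16095 genes whose mean over the libraries reached 10 scaled counts, and a gene is said to have risen or fallen only at an adjusted p under 0.05. All 8 members passed the filter on low values. The libraries held 28508762 to 40224497 reads in genes, and 1 read was worth 0.853 to 1.05 scaled counts. The 8 genes fixed as a stem cell list for the check, Lgr5, Olfm4 and Epcam among them, were all read in every group. They summed to 279557 to 306179 scaled counts untreated and 295699 to 350273 with IFNg. Most of this was Olfm4 (219689 to 266604 over the libraries), with Lgr5 at 2484 to 8499. Of these genes limma called 0 of 8 (3 at an unadjusted p under 0.05), edgeR called 0 and DESeq2 only Epcam, as higher. Paneth cell markers were abundant too and uneven, at 105296 to 360261 untreated and 24141 to 201447 with IFNg. All 8 of the 8 measured were lower on average with IFNg (median log2 change -0.98), and none was called by any of the 3 tools (0 at an unadjusted p under 0.05 in limma without pairs). With the pairs 5-6, 1-2 and 9-10 as a block in limma, Itln1, Lyz1, Ang4, Defa24 and Pla2g2a had unadjusted p of 0.00342 to 0.0335. Their adjusted p was 0.245 to 0.365. Defa17, Mmp7 and Defa22 had unadjusted p of 0.0592 to 0.256 in that fit. Goblet cell markers summed to 77977 to 270262 untreated and 85575 to 168263 with IFNg. Enteroendocrine and tuft markers summed to 6763 to 18657 untreated and 5571 to 16080 with IFNg, and enterocyte markers to 2919 to 7059 and 4118 to 7980. No gene of these lists was called by any of the 3 tools. T and natural killer cell markers summed to only 27.3 to 80.3, with the pan-leukocyte gene Ptprc at 11.1 to 41.2, and macrophage and dendritic cell markers to 1151 to 1536, most of it Cd14. On the same list, Cd68 was at 117 to 218 and Itgam at 104 to 172. Lower were Lyz2, Csf1r and C1qa, at 2.56 to 30.9, 0.860 to 36.9 and 2.11 to 22.7. The 9 genes fixed as a list of handling stress summed to 90219 to 108362 scaled counts untreated and 115999 to 189983 with IFNg, 8 of 9 with a log2 change above 0; limma called 0 of 9 (2 at an unadjusted p under 0.05), edgeR 0 and DESeq2 2, both higher. Its part in the differences below was not tested. In such bulk samples, fewer cells of a type and less RNA per cell cannot be told apart.

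Apart from treatment, the titles carry a tag, GFP1 for untreated 5 and IFNg 6 and GFP3 for the other 4 libraries, which the labels do not explain. The first principal component (35.2% of the variance) separated the tags and the second (28.8%) was lower in each untreated library than in any treated one. The female transcript Xist was at 8336 and 6147 scaled counts in untreated 1 and IFNg 2 and at 0 to 16.9 in the other libraries, and the Y-linked Ddx3y was at 1.72 and 0.964 there and at 4219 to 6346 in the others, so these 2 libraries, 1 in each group, differed in sex from the rest. The mitochondrial transcripts fixed as a list summed to 911333 and 915901 in the GFP1 libraries and to 261265 to 678773 in the others. The interferon response was present in every pair of libraries: Irf1, the interferon-induced transcription factor, rose from 1773 ± 89.3 to 59642 ± 6397 scaled counts (SD, n = 3), a log2 change of 5.07 (limma adjusted p = 2.33e-05). Among the genes fixed as a check on the response, Irf1, Irgm1, Gbp2 and Socs1 rose by 5.07 to 7.90 on the log2 scale.

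The DNA next to the start sites was read for the 2 letter patterns through which IFNg is known to act. The first is the gamma-activated site (GAS), TTCNNNGAA, which reads the same on both strands. IRF1 binds the second, the interferon-stimulated response element, whose core was searched as GAAA, any 2 bases and GAAA on both strands. Across 32851 RefSeq windows of 300 bases (GRCm38.p6; 250 bases before to 50 after a start site) 8.30% held the GAS pattern and 3.44% the core, and 7 members had a window. Fas was the only one of them with a GAS match and none had the core, which is a description of these letters and not of binding. The upstream parts of the windows of Fas, Casp4 and Casp1 are shown, since Fas and Casp4 had the highest fold with IFNg and Casp1 is the neighbour of Casp4, together with short stretches at 2 genes that rose, Irf1 and Socs1. Capitals mark the GAS match in Fas and Irf1, and in Socs1 a pair of core matches that overlap. All read 5′ to 3′ along the gene, Socs1 from the minus strand and the others from the plus strand.
Fas, chr19:34290409-34290646: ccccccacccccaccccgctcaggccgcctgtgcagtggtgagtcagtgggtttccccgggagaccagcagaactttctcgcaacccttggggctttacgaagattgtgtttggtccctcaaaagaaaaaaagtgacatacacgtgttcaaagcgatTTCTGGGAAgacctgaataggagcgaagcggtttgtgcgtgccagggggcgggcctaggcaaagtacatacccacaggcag
Casp4, chr9:5308599-5308827: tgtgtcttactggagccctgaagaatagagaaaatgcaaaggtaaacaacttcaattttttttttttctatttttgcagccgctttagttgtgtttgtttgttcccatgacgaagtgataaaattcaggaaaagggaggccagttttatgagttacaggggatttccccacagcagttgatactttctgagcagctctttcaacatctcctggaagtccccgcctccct
Casp1, chr9:5298267-5298516: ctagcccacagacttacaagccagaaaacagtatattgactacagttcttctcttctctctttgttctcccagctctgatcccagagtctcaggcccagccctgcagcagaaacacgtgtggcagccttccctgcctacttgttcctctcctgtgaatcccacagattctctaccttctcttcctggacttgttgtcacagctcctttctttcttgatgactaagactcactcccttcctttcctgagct
Irf1, chr11:53769914-53769942: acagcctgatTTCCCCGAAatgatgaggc
Socs1, chr16:10785597-10785626: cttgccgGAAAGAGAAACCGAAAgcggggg
Counted from the RefSeq start site, the match in Fas begins at -93 and that in Irf1 at -90. The stretches of Casp4 and Casp1 have no capitals because neither pattern is in them. Tnfrsf1a and Ripk1, the death receptor genes that rose (below), each have a GAS match in a window, that of Tnfrsf1a beginning at -244.

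None of the 8 members rose or fell with IFNg. In limma 0 of 8 passed in either direction, beside 67 genes higher (0.416% of those tested) and 2 lower (0.0124%). At an unadjusted p under 0.05 the count was still 0 of 8, beside 9.22% of all genes. At an adjusted p under 0.05, 0 of 8 passed in edgeR's quasi-likelihood test (0.373% of genes called) and in DESeq2 (3.27% of 14212 genes). Both were run on recovered whole reads. With the pairs of libraries as a block in limma, 0 of 8 passed at an adjusted p under 0.05 (0.466% of genes called). In that fit only Casp4 had an unadjusted p under 0.05 (0.0101, with an adjusted p of 0.354). The share of all genes under 0.05 unadjusted in that fit was not counted, so this p has no background beside it. The members' median log2 change was -0.08 with 3 of 8 above 0, and that of all tested genes was -0.08. Their adjusted p ran from 0.609 to 0.970. The 95% intervals lay between -1.49 and 1.63, so a log2 rise above 1.63, 3.10-fold, was outside the interval of every member. The upper bounds were lower for Apaf1 (0.94), Casp1 (0.61), Gsdmd (0.52) and Casp6 (0.42), and each interval included 0. For a single gene the exact permutation test of 3 against 3 libraries cannot give a p below 0.1, and only Fas and Casp4 reached that value.

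**Figure D1:**
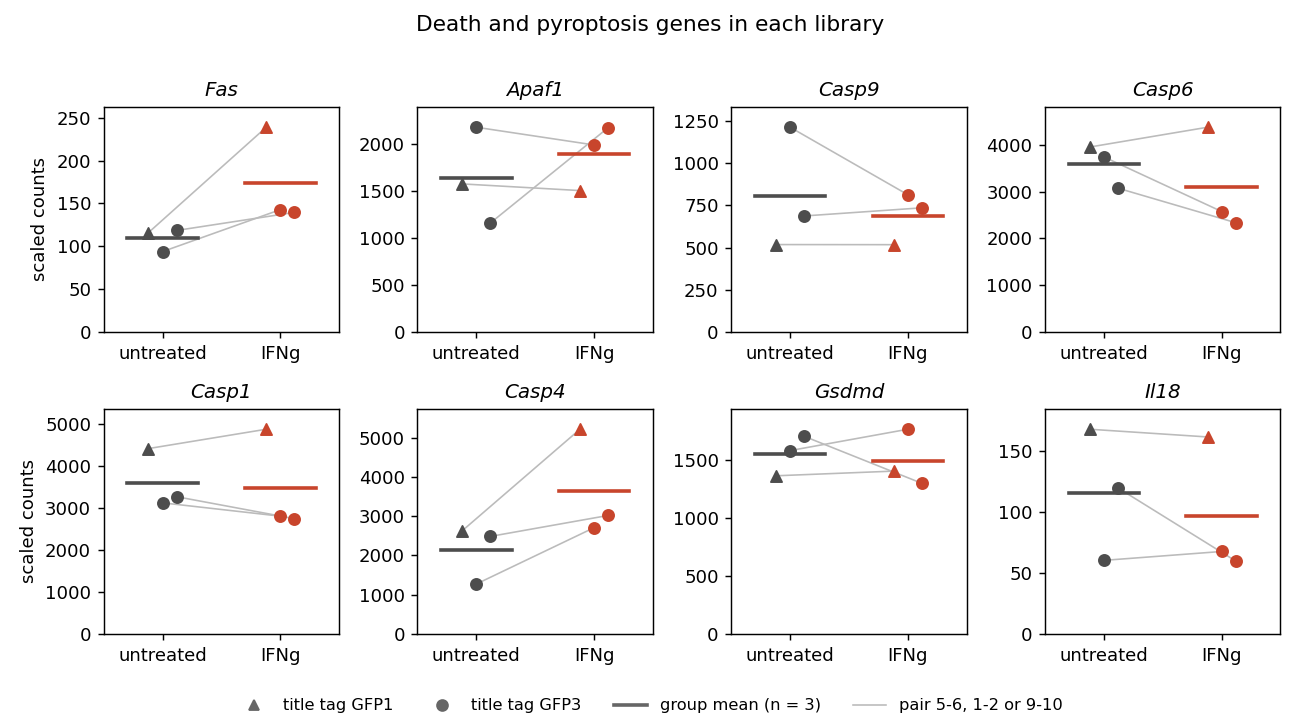
Scaled counts (y axis, from 0, one scale per gene) of the 8 members in the untreated and IFNg libraries (x axis); triangles are the GFP1 and circles the GFP3 libraries, thick bars the group means (n = 3) and grey lines the pairs 5-6, 1-2 and 9-10. All 3 IFNg libraries lie above all 3 untreated ones for Fas and Casp4 only, and the triangles are the 2 highest points for Casp1, Casp6 and Il18 and the 2 lowest for Casp9.

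Fas, the death receptor itself, lies at chr19:34290666-34327772 on the plus strand (GRCm38, GENCODE M21, as for all gene positions here). It was read at 116, 93.8 and 118 scaled counts in untreated 5, 1 and 9, and at 239, 143 and 140 in IFNg 6, 2 and 10. Every treated library was thus above every untreated one, and IFNg 6 stood well above the other 2. The means were 109.4 ± 13.6 and 173.7 ± 56.4 (SD, n = 3), a ratio of 1.59 and a log2 change of 0.62 ± 0.36 (SE; 95% interval -0.19 to 1.43; limma adjusted p = 0.740). The pairs gave log2 differences of 1.04 (5-6), 0.60 (1-2) and 0.23 (9-10). Without IFNg 6 the log2 change was 0.37, and in the 4 GFP3 libraries alone 0.42, both above 0.

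At the mitochondrial branch, Apaf1, the scaffold of the apoptosome (chr10:90989311-91082770, minus strand), gave 1572, 2173 and 1158 scaled counts untreated and 1501, 1985 and 2169 with IFNg. Its groups overlapped, with untreated 9 the lowest library and untreated 1 the highest, and only the pair 9-10 had a difference above 0. The log2 change was 0.24 ± 0.31 (SE; 95% interval -0.46 to 0.94; limma adjusted p = 0.909). Casp9, the initiator that Apaf1 activates (chr4:141793612-141815976, plus strand), was at 518, 1214 and 688 untreated and at 518, 814 and 736 with IFNg. Untreated 1 stood apart as the highest, and without it the log2 change turned from -0.16 ± 0.37 (SE; limma adjusted p = 0.950) to 0.18. Of Casp9's exon bases, 94 are also exon of Cela2a and Ctrc, pancreatic protease genes on the opposite strand, and whether the counting used strand is not given in the sources used here.

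Casp6, an executioner caspase (chr3:129901425-129914103, plus strand), was at 3955, 3743 and 3074 scaled counts untreated and at 4378, 2576 and 2336 with IFNg. The treated group held both the highest library and the 2 lowest, and the log2 change was -0.26 ± 0.30 (SE; 95% interval -0.95 to 0.42; limma adjusted p = 0.902). The pair 5-6 gave a log2 difference of 0.15, against -0.54 and -0.40 in the GFP3 pairs. The interaction of treatment and tag, which rests on 1 GFP1 pair, did not pass for Casp6 (limma adjusted p = 0.649), nor for any other member (up to 0.930).

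Casp1, the inflammasome caspase (chr9:5298517-5307265, plus strand), was read at 4404, 3115 and 3261 scaled counts untreated and at 4864, 2799 and 2739 with IFNg. The groups overlapped fully, with the GFP1 library the highest in each, and the log2 change was -0.09 ± 0.31 (SE; 95% interval -0.78 to 0.61; limma adjusted p = 0.965). Casp4, the sensor of cytosolic lipopolysaccharide, begins 1562 bases after the end of Casp1 on the same strand (chr9:5308828-5336783). It was read at 2629, 1273 and 2486 untreated and at 5216, 2708 and 3020 with IFNg. All treated libraries were higher than all untreated ones, although IFNg 2 exceeded untreated 5 by little, and IFNg 6 was again the highest. The means were 2130 ± 745 and 3648 ± 1367 (SD, n = 3), a ratio of 1.71, with a log2 change of 0.79 ± 0.37 (SE; 95% interval -0.06 to 1.63; limma adjusted p = 0.609). In the fit with pairs as a block, the unadjusted p was 0.0101 and the adjusted p 0.354. The log2 differences were 0.99 (5-6), 1.09 (1-2) and 0.28 (9-10), and the change was 0.50 without IFNg 6 and 0.45 without untreated 1, the lowest library.

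Gsdmd encodes the pore former that both inflammatory caspases cut (chr15:75862327-75867408, plus strand). It was among the steadiest members, at 1361, 1578 and 1700 scaled counts untreated and 1401, 1762 and 1296 with IFNg. The groups overlapped and the log2 change was -0.06 ± 0.26 (SE; 95% interval -0.65 to 0.52; limma adjusted p = 0.970). Il18, the cytokine precursor that caspase-1 matures (chr9:50554827-50581840, plus strand), was low and scattered: 167, 60.2 and 119 untreated, and 161, 67.5 and 59.7 with IFNg. The GFP1 library was the highest in each group, and the log2 change of -0.29 ± 0.53 (SE) had the widest interval of the members (-1.49 to 0.90; limma adjusted p = 0.933). The members rested on 68 to 6116 reads per library, the fewest for Il18.

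Fas and Casp4, 2 of the 8 members, had all treated libraries above all untreated ones, a pattern that 8.13% of tested genes showed, and 0 had the reverse, which 5.06% showed. The same pair was higher with IFNg in all 3 pairs of libraries, as were 15.1% of genes, while no member was lower in all 3, as were 22.4% of genes.

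**Figure D2:**
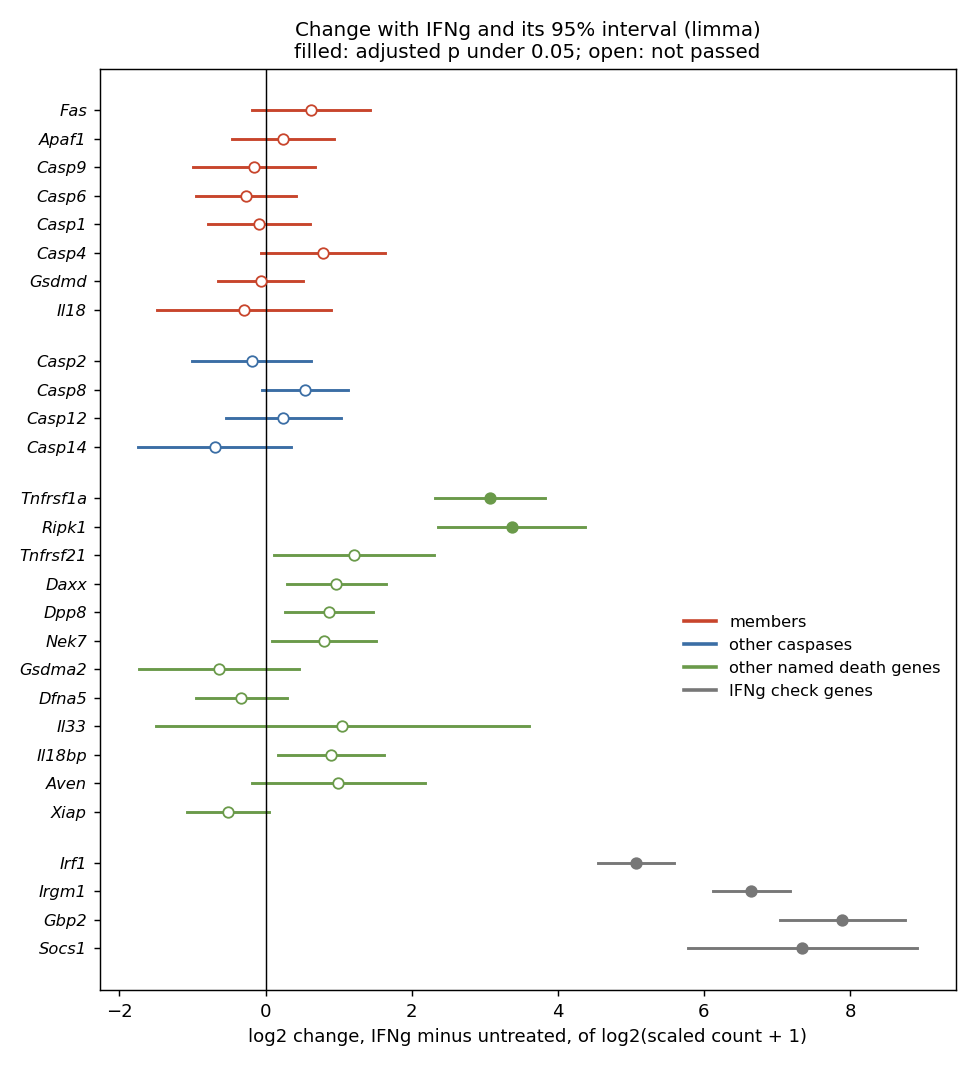
Log2 change with IFNg (x axis, points) and its 95% interval (lines) from limma for the 8 members, 4 other caspases, 12 other named death genes and 4 check genes (y axis); filled points passed at an adjusted p under 0.05. All member and caspase points are open, with intervals that include 0 in this fit, which leaves out the pairs of libraries. Tnfrsf1a and Ripk1 (3.07 and 3.37) and the 4 check genes are filled.

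Levels were compared between members per kilobase of annotated exon sequence. Untreated, Casp1 was the highest at 2400 ± 472 scaled counts per kilobase (SD, n = 3), a level above that of 95.3% of the tested genes with a length. Gsdmd (651 ± 72.3), Casp6 (643 ± 82.3) and Casp4 (574 ± 201) followed and did not differ from each other beyond their spread. Apaf1 (181 ± 56.6), Casp9 (155 ± 69.8) and Il18 (112 ± 52.1) formed a lower group that likewise overlapped, and Fas was the lowest at 53.0 ± 6.58, above 38.6% of genes, its mean ± SD just short of that of Il18. With IFNg, Casp1 (2316 ± 808) was still first and Fas (84.2 ± 27.4) still last, next to Il18 (93.2 ± 54.8), from which it did not differ beyond the spread. Casp4 (983 ± 368) then had a mean above those of Gsdmd (625 ± 103) and Casp6 (555 ± 200), with overlapping spreads. Transcripts of the caspase-1, caspase-4 and gasdermin D steps were thus present in the untreated libraries. In such bulk samples the cell type that they came from cannot be told.

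The 6 other caspases measured gave 0 genes called of 6 in limma, with 0 at an unadjusted p under 0.05 and a median log2 change of 0.03. Casp8, the initiator recruited by Fas, was the closest to the Fas and Casp4 pattern: 4671, 5437 and 4238 scaled counts untreated and 8090, 7463 and 5449 with IFNg. Its treated libraries were all above its untreated ones, IFNg 10 only just, and the log2 change was 0.54 ± 0.26 (SE; limma adjusted p = 0.617). With the pairs as a block in limma, its unadjusted p was 0.0214 and its adjusted p 0.354. Casp12, beside Casp4 on chromosome 9, had 0.24, and the low-level Casp14 had -0.69 (limma adjusted p = 0.825).

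Upstream of the caspases, 2 of the 13 measured genes of the death receptor list rose and 0 fell, with a median log2 change of 0.21. Tnfrsf1a, the main receptor for tumour necrosis factor, was at 846, 1239 and 1294 scaled counts untreated and at 6231, 13161 and 9826 with IFNg. The groups lay far apart, and the log2 change was 3.07 ± 0.33 (SE; limma adjusted p = 0.00353). Ripk1, the kinase that carries that receptor's signal to either survival or death, was at 1011, 579 and 353 untreated and at 3738, 7240 and 8514 with IFNg. It too did not overlap, with a log2 change of 3.37 ± 0.44 (SE; limma adjusted p = 0.0124), but the adjusted p was 0.120 with the pairs as a block, and its exons overlap those of the pseudogene Gm17084 on the same strand by 511 bases and of Serpinb6a on the opposite strand by 241. The intervals of these 2 genes (2.31 to 3.83 and 2.36 to 4.38) lay wholly above those of all 8 members. The largest changes that did not pass, at a mean of 50 or more, were those of the death receptor gene Tnfrsf21 (log2 1.21; limma adjusted p = 0.454) and the Fas-binding Daxx (0.97; 0.324). In limma with the pairs as a block, their unadjusted p was 0.0189 and 0.00140, and the adjusted p 0.354 and 0.151. Fadd, the adaptor that joins Fas to caspase-8, was at 0.21 and the caspase-8 inhibitor Cflar at -0.08.

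Around caspase-1, 0 of the 13 tested genes of the inflammasome list were called in limma, with 3 at an unadjusted p under 0.05 and a median log2 change of -0.05. The largest changes among those whose mean reached 50 scaled counts were in Dpp8, a protease that restrains the NLRP1 inflammasome (0.87; limma adjusted p = 0.324), and Nek7, a partner of NLRP3 (0.80; 0.441). Dpp8 and Nek7 had unadjusted p of 0.00723 and 0.0217 in limma with the pairs as a block, and adjusted p of 0.335 and 0.354. Both had treated libraries all above the untreated ones, and in the 4 GFP3 libraries alone they passed in limma, at adjusted p = 0.0256 and 0.0304, as did Tnfrsf21 at 0.0128. That fit called 8.34% of all genes and 0 of the 8 members. Of the gasdermin and membrane rupture genes limma called 0 of 7, with 0 at an unadjusted p under 0.05 and a median of -0.24. The largest at a mean of 50 or more were Gsdma2, one of a family of near-identical copies (-0.63; limma adjusted p = 0.864), and Dfna5, which encodes gasdermin E (-0.33; 0.876).

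Of the interleukin-1 family genes 0 of 5 tested were called in limma, with 1 at an unadjusted p under 0.05 and a median log2 change of 0.49. Il18bp, the secreted inhibitor of interleukin-18, was at 98.0, 129.9 and 104.0 scaled counts untreated and 189, 230 and 198 with IFNg. Its groups did not overlap and its libraries were close to each other within a group, yet the log2 change of 0.90 ± 0.32 (SE) did not pass (limma adjusted p = 0.391). Nor did it pass in limma with the pairs as a block (unadjusted p = 0.0139, adjusted p = 0.354). Il33 gave 1.05 (limma adjusted p = 0.893), with levels of 37.9 and 82.7 in the GFP1 libraries and 398 to 894 in the others. Within pairs it was higher with IFNg by 1.11 (5-6), 1.16 (1-2) and 0.88 (9-10) on the log2 scale, and with the pairs as a block the SE was 0.24 and the limma adjusted p 0.266. Among the 12 apoptosome partners and caspase inhibitors 0 were called in limma, with 0 at an unadjusted p under 0.05 and a median of -0.17. Aven, an Apaf1-binding inhibitor, gave 1.00 (limma adjusted p = 0.674), carried by 1 library, IFNg 10. Xiap, which blocks caspase-9, was at 1436, 1416 and 1150 untreated and at 931, 891 and 958 with IFNg. All its treated libraries were below the untreated ones, at a log2 change of -0.52 ± 0.25 (SE; limma adjusted p = 0.611). For Xiap, limma with the pairs as a block gave an unadjusted p of 0.0356 and an adjusted p of 0.367. In edgeR and DESeq2, Tnfrsf1a and Ripk1 were likewise the only genes called in these 6 lists.

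The title tags separated the libraries for 4 of the 8 members. Casp1, Casp6 and Il18 were higher in both GFP1 libraries than in all 4 GFP3 libraries, 3 of 8 members beside 19.3% of all genes, and Casp9 was lower in both, 1 of 8 beside 18.6%. The 2 GFP1 libraries are 1 of the pairs, so a tag p treats libraries that may share a source as independent and can be too small. In a comparison added after these values were seen, limma with treatment and tag together gave GFP1 minus GFP3 log2 differences of 1.15 ± 0.38 for Il18 (SE; adjusted p = 0.0970), 0.64 ± 0.19 for Casp1 (0.0788), 0.53 ± 0.22 for Casp6 (0.169) and -0.70 ± 0.28 for Casp9 (0.152). None of the 8 members passed, while 7.75% of genes did. Pycard, the adaptor that links inflammasome sensors to caspase-1, was singled out after its values were seen and did pass: it was at 10626 and 11559 scaled counts in the GFP1 libraries and at 4789 to 6002 in the others, a log2 difference of 1.12 ± 0.20 (SE; limma adjusted p = 0.0277). Its own change with IFNg was -0.06. The same libraries had the highest mitochondrial sums, given above, and the lowest Paneth cell sums, 24141 and 105296 against 106983 to 360261, though their macrophage marker sums of 1151 and 1208 were within or next to the range of the others (1154 to 1536). Enterocyte marker sums were higher in the GFP1 libraries, at 7059 and 7980 against 2919 to 5979, most of it Fabp2, while Sis on that list was lower. Their sums were lower for the stem cell list (279557 and 295699 against 300080 to 350273) and for enteroendocrine and tuft markers (5571 and 6763 against 9317 to 18657). Goblet cell sums of 92506 and 99028 lay within the range of the others (77977 to 270262). The part of these in the tag differences was not tested.

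**Figure D3:**
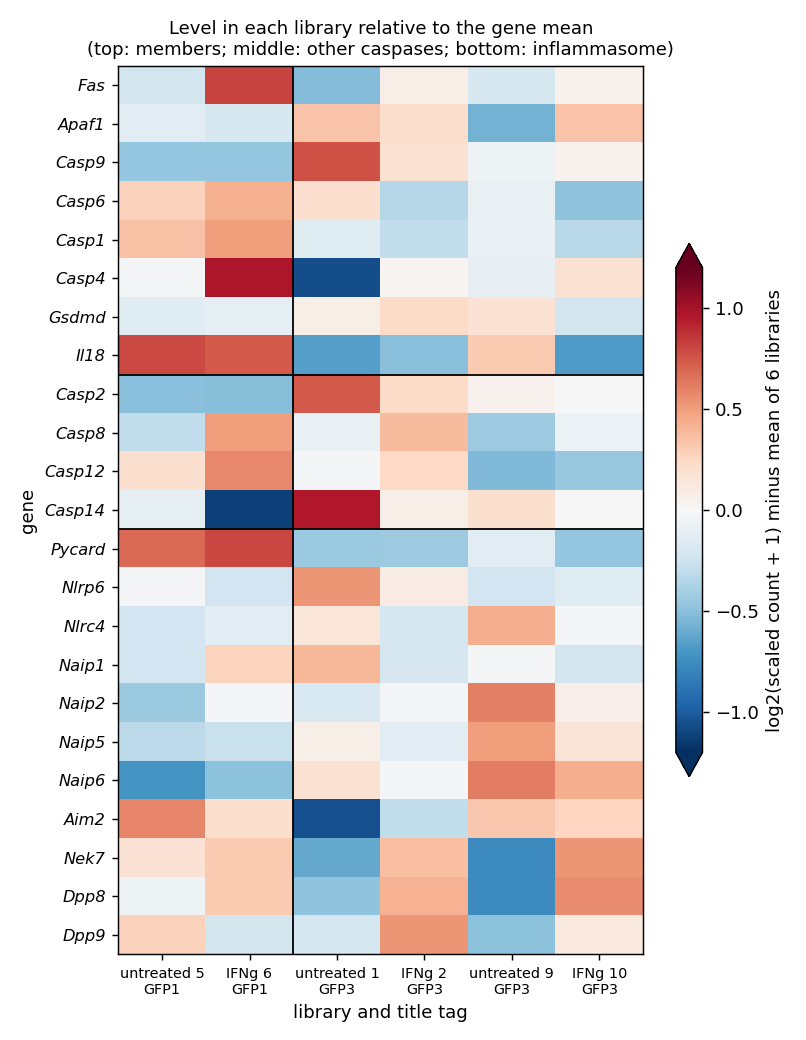
Level of each gene (rows) in each library (columns, grouped by pair, title tag given) as log2(scaled count + 1) minus the gene's mean over the 6 libraries; red is above and blue below the mean, with the scale ending at 1.2 in each direction. Casp1, Il18 and Pycard are red in both GFP1 libraries, untreated 5 and IFNg 6, where Casp9 and Casp2 are blue; Casp4 is reddest in IFNg 6 and bluest in untreated 1.

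Across the 6 libraries, which share treatment and tag, members fell into a few patterns, given here as Pearson correlations of log2(scaled count + 1) and as description only. Fas and Casp4 varied together (r = 0.934), as did Casp1 with Il18 (0.908) and Casp6 (0.878), while Casp9 ran opposite to Il18 (-0.850) and Casp4 (-0.829). Among genes whose mean reached 50 scaled counts, the closest to Fas were Higd1a (0.980), Wdr25 (0.973) and Samhd1 (0.963). Those closest to Casp4 were Spata22 (0.999), Gm42716 (0.998) and Cstb (0.982). For Casp1 they were Commd6, Glod4 and Gm11221 (0.999, 0.997 and 0.997). For Casp6 they were Cep290, Nsmce2 and Vdac3-ps1 (all 0.996), and for Casp9 Slc37a3 and another caspase gene, Casp2, were among the 3 closest (0.993 and 0.991). Gsdmd was nearest to Tagln2, Txnip and Mul1 (0.973, 0.969 and 0.959), Il18 to Tmsb4x, Smkr-ps and Gm16288 (0.996, 0.996 and 0.994), and Bag2 and Rad54l2 were among the 3 closest to Apaf1 (0.983 and 0.979).

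**Figure D4:**
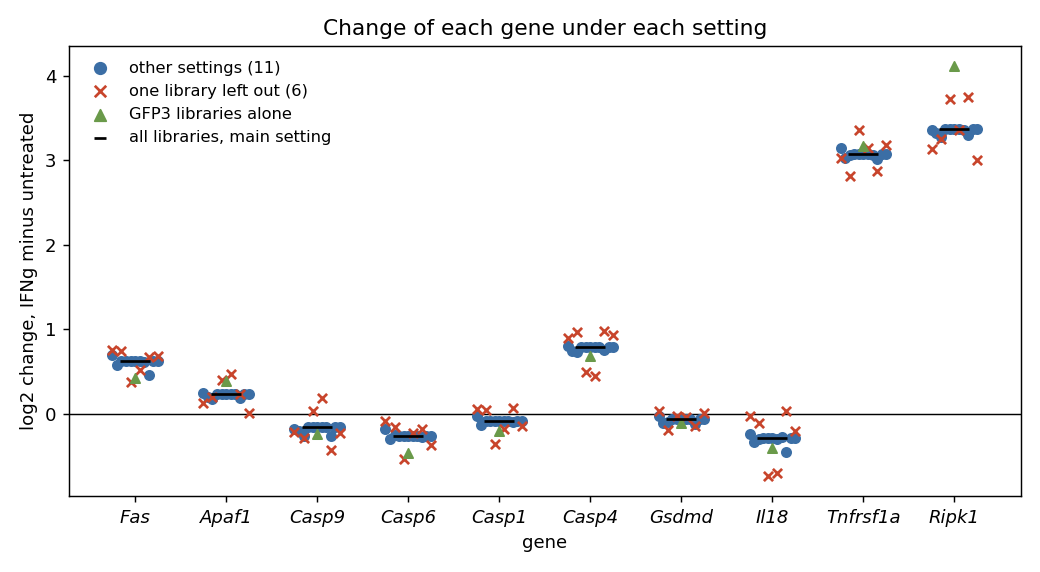
Log2 change with IFNg (y axis) of the 8 members and of Tnfrsf1a and Ripk1 (x axis) in the main analysis (black bar) and under 18 alternatives: 11 other settings (blue circles), 1 library left out (red crosses, 6) and the GFP3 libraries alone (green triangles). Fas stays between 0.37 and 0.76 and Casp4 between 0.45 and 0.97, while Casp1, Casp9, Gsdmd and Il18 have points on both sides of 0 and Tnfrsf1a stays at 2.82 or above.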

How the data were processed

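Messenger RNA of 6 libraries of sorted cells was amplified and sequenced without molecular identifiers. Per the submitters' processing notes the tools were cutadapt 1.6, STAR 2.5.0a, HTSeq 0.5.3 and DESeq 1.22.1 with the mm10 build. The deposited values are a normalized signal: counts divided by a size factor by the authors. Dividing by each library's smallest step gave whole reads for 100% of 138762 values (within 0.01 reads). The 4 entries that name no gene were left out. Genes whose mean reached 10 scaled counts were fitted with limma 3.58.1 (trend, robust) on log2(value + 1) in R 4.3.3, with Benjamini-Hochberg adjustment over 16095 genes. edgeR 4.0.16 and DESeq2 1.42.0 ran on the recovered reads. Other alternatives were pseudocounts, filters, scalings, blocks and left-out libraries. Precision is set by 3 libraries a group. Of the fits, only the main limma comparison without pairs was tested on simulated data.

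The 8 members and the gene lists were chosen with earlier results of these data known. Named genes are the members, each death list's genes that passed and its 2 largest other changes at a mean of at least 50, the check genes, and the 3 genes closest in pattern to each member; a few genes that this rule covers are not reported here. The neighbouring title numbers 5-6, 1-2 and 9-10 were taken as pairs: deviations from the group means correlated at 0.302, 0.404 and 0.252 within pairs and at -0.284 to -0.031 otherwise. Fasl, Gsdma3, Il1b, Nlrp1a and protein sequences were not analysed here.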

Additional observations from a re-analysis of the deposited data

How the results depend on the processing

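None of the 8 members passed under any of the 18 alternatives, which left the count at 0 in both directions. Fas, Casp4, Casp6 and Apaf1 kept their sign throughout, with adjusted p from 0.399 to 0.994 for Fas and from 0.253 to 0.994 for Casp4. Reversed signs came only with a library left out. Casp1 was at 0.0680 without untreated 5, 0.0401 without IFNg 2 and 0.0557 without IFNg 10. Casp9 was at 0.181 without untreated 1 and 0.0329 without IFNg 6, Gsdmd at 0.00783 without untreated 9 and 0.0289 without IFNg 10, and without untreated 5 Il18 was at 0.0298 and Il33 at -0.115. With a library left out, log2 changes ran from -0.36 to 0.07 for Casp1, -0.43 to 0.18 for Casp9, -0.19 to 0.03 for Gsdmd, -0.74 to 0.03 for Il18, 0.01 (without untreated 9) to 0.47 (without untreated 1) for Apaf1, -0.54 (without IFNg 6) to -0.09 (without IFNg 10) for Casp6 and -0.12 to 2.19 for Il33, whose 3 pairs were all above 0. Ripk1 missed the threshold without untreated 1, IFNg 2 or IFNg 10 (adjusted p = 0.0817, 0.0650 and 0.0610), without the trended and robust prior (0.0693) and with the pairs as a replicate block (0.120). The block changed no other call on a named gene.

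Over all genes, 67 higher and 2 lower became 457 and 8 in DESeq2, 108 higher with the tag as a block, and 1331 and 12 in the GFP3 libraries alone. The lower count was 1 with a pseudocount of 0.25, a mean of at least 50, quantile normalization or the replicate block (74 higher). Leaving out 1 library gave 40 to 366 higher, the extremes without IFNg 2 and without untreated 5, and 1 to 3 lower. The causes were not tested. Fas and Il18 rest on few reads, and their intervals cover these libraries only.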

Other observations

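In genes of the inflammasome and interleukin-1 lists outside the rule for naming, chosen after their values were seen, 2 had no read in any untreated library. Ifi204, a DNA-sensing protein of the interferon-inducible p200 family, was at 52.9, 40.5 and 13.2 scaled counts in IFNg 6, 2 and 10 (62, 42 and 15 reads), at least 12.1-fold higher than a floor of 3 reads per untreated library. It passed the filter on low values only through the IFNg libraries. Its log2 change was set largely by the pseudocount, at 4.98 with 1, 2.86 with 5 and 6.94 with 0.25. The limma adjusted p of 0.113, and its range of 0.0126 to 0.659 over 17 alternatives, are therefore given as description only. Il1a, the alarmin interleukin-1 alpha, was at 14.5, 11.6 and 9.65 with IFNg (17, 12 and 11 reads), at least 4.04-fold above the same floor. Its mean was below the filter and it was not tested. These floors cover counting error only, since reads without molecular identifiers are not independent molecules.

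Il1rn, which encodes the interleukin-1 receptor antagonist, was also singled out after its values were seen. Its change with IFNg was -0.88 on the log2 scale, with pair differences of -0.59 (5-6), -1.14 (1-2) and -0.90 (9-10). With the pairs as a block it did not pass (SE 0.19, limma adjusted p = 0.212). It was at 3375 and 2243 scaled counts in the GFP1 libraries and between 5023 and 12806 in the others, a log2 difference of -1.60 ± 0.22 (SE; limma adjusted p = 0.0170). Il33 differed in the same direction by -3.46 ± 0.25 (adjusted p = 0.00680). Both p-values of the tag difference count the libraries of the 1 GFP1 pair as independent and can be too small.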
